A study of Sus scrofa with 50 samples.

Results

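Of 57085 assembled Korean minipig (Sus scrofa) transcripts, 2346 (4.11%) matched a protein of the LINE-1 retrotransposon. They were chosen by annotation alone: the best Swiss-Prot hit of the translated transcript (BLASTX) had LINE-1 in its protein name at an E-value of at most 1e-10. Levels were given as TPM, a transcript abundance corrected for length, for 50 libraries from 10 pigs, 5 labelled ET-type and 5 labelled L-type, with 1 library per pig and tissue. The tissues are backfat, brain, loin and tenderloin (both skeletal muscles) and lymph. The labels do not spell out ET or L, name no treatment, genotype or age, and identify each pig by a number. Left out were 5 libraries whose marker genes stood apart from those of their tissue, namely those of L-type pig S0355 in backfat, loin and brain and those of ET-type pig S0235 in lymph and brain. The remaining 45 libraries comprised backfat and loin from 5 ET and 4 L pigs, lymph from 4 ET and 5 L pigs, brain from 4 ET and 4 L pigs and tenderloin from 5 ET and 5 L pigs. Every column of the table summed to 1000000, so sequencing depth is unknown and each level is relative to the rest of its library.

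LINE-1 is a mobile element that copies itself through RNA. A full copy encodes ORF1, an RNA-binding protein that coats the element's RNA, and ORF2, which carries an endonuclease that nicks the target DNA and a reverse transcriptase that copies the RNA back into DNA. Most copies in mammalian genomes lost their 5′ end on insertion and can no longer move, and pieces of them lie within the introns and untranslated ends of ordinary genes. A polyadenylated transcript with a LINE-1 match can therefore be an element's own RNA or a host transcript that runs through an old copy. Germ cells, early embryos and some neurons are known for LINE-1 transcription, and DNA methylation and repressive chromatin restrain it elsewhere.

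ORF2 made up most of the matches, with 2262 members, of which 1273 hit the human, 785 the mouse and 204 the slow loris (Nycticebus coucang) entry. ORF1 accounted for 79 members, 75 on the human and 4 on the mouse entry. The other 5 matched L1TD1, a host RNA-binding gene derived from ORF1. A further 427 transcripts carried a LINE-1 name with a weaker E-value and were not members. The last member inside the limit had an E-value of 9.68e-11 and the first transcript outside it 1.02e-10. These weaker hits summed to between 0.0359% and 0.212% of a library's TPM, with a median of 0.111%.

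The listed matches were fragments. The annotation gives 1 aligned stretch per hit, and match here means that stretch. Further stretches of the same protein on a transcript would not be counted in residues, percent of transcript or coverage. The E-values do not follow the listed length. Tenderloin.ET.NODE_19361 had 249 residues at an E-value of 0, and Tenderloin.L.NODE_17053 had 272 residues at 1.2e-103. The aligned stretch had a median of 106 residues (range 22 to 727) at a median identity of 57.1% (range 25.4% to 88.9%). Median identity was 57.4% for ORF2 and 46.1% for ORF1. The match covered a median of 19.2% of its transcript, and members were shorter than the assembly as a whole, with a median of 1773.5 bases against 2511 bases. The longest ORF2 match, Backfat.L.NODE_19835, spanned 727 residues of the human entry, ending at residue 1081, at 70.0% identity. It was followed by Tenderloin.ET.NODE_34556 (687 residues, 493 to 1179 of the slow loris entry) and Liver.L.NODE_41723 (residues 465 to 1089 of the human entry). Among ORF1 matches, Lung.ET.NODE_71126 was the longest, from residue 22 to 330. Liver.ET.NODE_58825 and Tenderloin.L.NODE_28211 each aligned over the same 293 residues, 19 to 311.

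**Figure D1:**
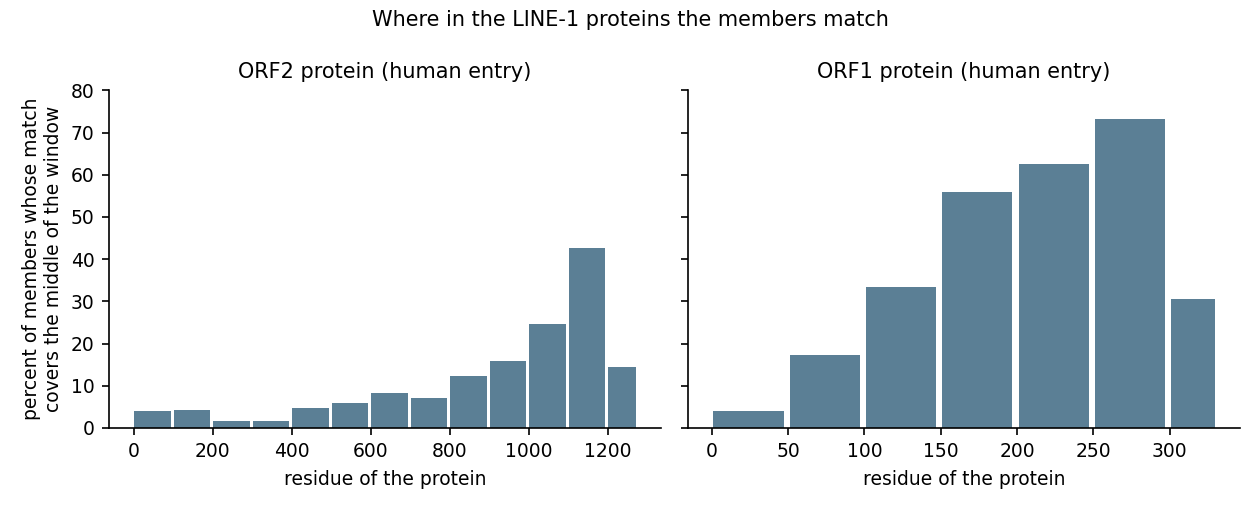
Percent of members whose match covers the middle of each window along the human ORF2 entry (1273 members, windows of 100 residues) and the human ORF1 entry (75 members, windows of 50 residues), counted from the amino end. Coverage peaks at 42.7% for ORF2 residues 1101 to 1200 and at 73.3% for ORF1 residues 251 to 300, and is lowest toward the amino ends.

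Coverage of both proteins by the listed stretches leaned toward the carboxy end, as the plot of coverage along the human entries shows. Residues 1 to 100 of ORF2, in the endonuclease, were covered by 4.01% of the members on that entry, and residues 201 to 300 and 301 to 400 by 1.57% each. The share was 12.2% for residues 801 to 900, 24.6% for 1001 to 1100 and 42.7% for 1101 to 1200, then 14.5% for 1201 to 1275. For ORF1, 4% of members covered residues 1 to 50 and 73.3% covered residues 251 to 300.

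The match ran along the deposited strand in 1004 members (42.8%) and against it in 1342. For other hits the forward share was 50.6%, and for the 32 transcripts matching other repeat or retroviral proteins it was 43.8%. Over all hits 50.1% ran forward, so the assembly was not oriented by strand and the direction of transcription cannot be read from a match. A predicted peptide of any kind was listed for 38.0% of members against 62.6% of all transcripts. In 382 members that peptide itself matched a LINE-1 protein.

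In 52 members a predicted peptide matched a host protein, 35 distinct Swiss-Prot entries in all. The most frequent entry, with 16 members, was mouse ZN277, a zinc finger protein. All of these lay on the strand opposite to the LINE-1 match, and 15 overlapped it, by a median of 66.5% of its length. None of the other 36 host peptides overlapped the LINE-1 match, 24 lying on the opposite and 12 on the same strand. Those 36 included CD99 and XG, related cell surface proteins, myomegalin, a centrosome and Golgi scaffold, and a protocadherin alpha, a neuronal adhesion protein.

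Transcript names give the tissue and type of pig each contig was assembled from, in 20 assemblies covering 10 tissues. Members formed 4.54% of the 33986 transcripts assembled from L pigs and 3.48% of the 23099 from ET pigs, so 34.3% of members and 40.5% of all transcripts were ET-assembled. By tissue of assembly, the members' share was 5.73% in liver, 4.97% in lymph, 4.93% in kidney, 4.79% in brain, 4.43% in lung, 3.91% in tenderloin, 2.85% in loin, 2.78% in heart, 2.38% in spleen and 1.74% in backfat. Liver, kidney, lung, heart and spleen contributed contigs but no library to the table analysed here. Near-identical copies can share reads. The listed protein match was exactly that of another member in 314 members (13.4%), in 141 sets of up to 7. How reads were divided within such a set is uncertain, so single values of those members are too. Sequence identity between members was not measured, so other members may share reads as well.

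Most members were weakly represented. The median of the members' mean TPM over the 45 libraries was 1.87, against 2.69 for all transcripts, and ORF1 members stood at 2.99. A mean of at least 1 TPM was reached by 1673 members (71.3%, against 76.4% of all transcripts). In the 45 libraries 5 members were listed at 0 throughout, and 1587 reached 0.5 TPM in some library of all 10 pigs. No member reached 0.5 TPM in every pig of one type and in no pig of the other. Such transcripts were rare in the whole table too, with 0.0307% found only in ET and 0.00361% only in L pigs. With shares that low, 0 among 2270 members reaching 0.5 TPM anywhere does not set the members apart. The most abundant member held 1.43% of the summed member TPM, the first 10 held 6.75% and the first 100 held 29.0%, and 295 members were needed to reach 50%. ORF2 members contributed 93.3% of that sum, ORF1 members 6.51% and L1TD1 matches 0.203%.

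The tissue labels were checked against markers, summed in TPM per library. The 8 libraries labelled brain that were used held 20971 to 82994 TPM of the 3 matched anterior pituitary hormones (of 7 listed) and 367.3 to 776.5 TPM of 5 myelin, glial and neuronal markers, so every statement on brain refers to libraries of that makeup. The ranges of the pituitary sum were 47899 to 82994 TPM in ET and 20971 to 52477 TPM in L. The 2 left-out brain libraries stood the other way, with 18.7 TPM (S0235) and 26.2 TPM (S0355) of the pituitary hormones and 42910 and 68653 TPM of the myelin, glial and neuronal markers. The left-out backfat library of S0355 held 71644 TPM of skeletal muscle markers, against 4.93 to 290.3 TPM in the backfat libraries used. Its adipocyte markers summed to 119 TPM, against 493.3 to 19079 TPM. The left-out loin library of S0355 held 12669 TPM of adipocyte markers, against 31.4 to 118.0 TPM in the loin libraries used. Its skeletal muscle markers summed to 21.75 TPM, against 54565 to 132946 TPM. The left-out lymph library of S0235 had 75.1 TPM of lymphoid markers, against 2383 to 5975 TPM, and 2156 TPM of the kidney tubule protein uromodulin. In the libraries used, muscle markers in loin and tenderloin, adipocyte markers in backfat and lymphoid markers in lymph were highest in the tissues so labelled.

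The summed share of TPM in members was highest in brain and lowest in the 2 muscles. Brain libraries held 1.54% ± 0.196 (SD, n = 8, range 1.28% to 1.85%), lymph 1.01% ± 0.299 (n = 9, 0.641% to 1.495%) and backfat 0.608% ± 0.150 (n = 9, 0.261% to 0.733%). Tenderloin stood at 0.522% ± 0.121 (n = 10, 0.332% to 0.775%) and loin at 0.457% ± 0.0545 (n = 9, 0.379% to 0.552%). All 8 brain libraries lay above every backfat, loin and tenderloin library, and lymph overlapped with brain, backfat and tenderloin.

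**Figure D2:**
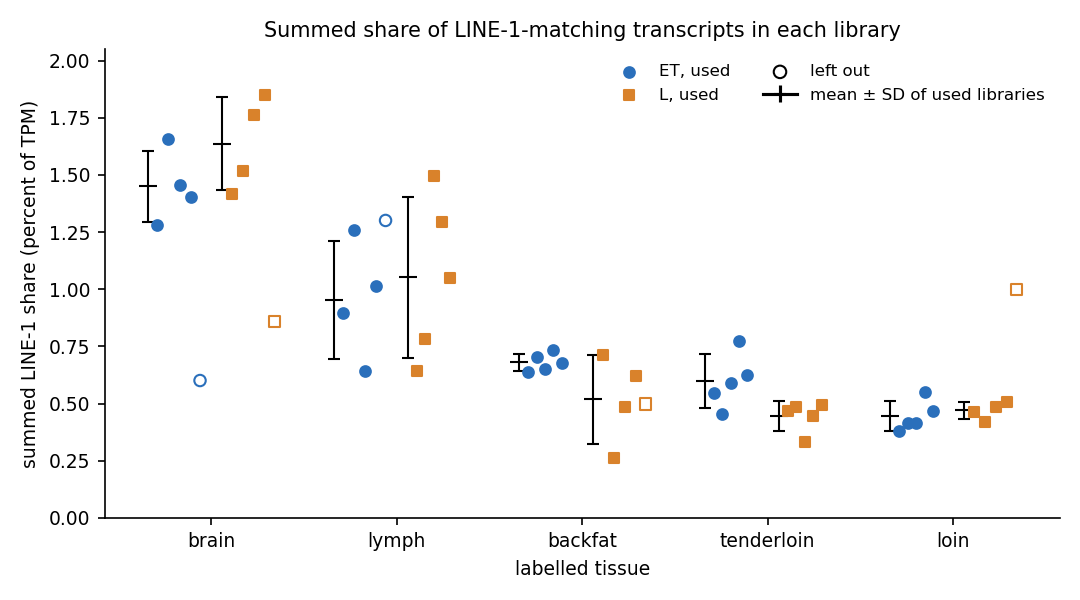
Summed TPM of the 2346 members as a percent of each library (y axis, linear from 0) by tissue and type. Each point is 1 of the 45 libraries, open symbols are the 5 libraries left out and black bars are the mean ± SD of the libraries used. Brain points lie between 1.28% and 1.85% and loin points between 0.379% and 0.552%, while the left-out loin library sits at 1%.

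Two-sided exact permutation tests of the log2 share, adjusted over the 10 pairs of tissues by the Benjamini-Hochberg method, separated brain and lymph from the other tissues. Brain was 3.38-fold above loin and 3.01-fold above tenderloin, and backfat stood at 0.382 of brain (adjusted p = 1.028e-04 for each). Its lead over lymph was 1.58-fold (adjusted p = 0.00219, higher in 8 of 8 pigs with both tissues). Lymph was 1.90-fold above tenderloin (adjusted p = 2.598e-04, 8 of 9 pigs), loin stood at 0.469 of lymph (adjusted p = 1.028e-04, lower in every pig) and backfat at 0.604 of lymph (adjusted p = 0.00264). Backfat against loin (1.29-fold, adjusted p = 0.0508), backfat against tenderloin (1.15-fold, adjusted p = 0.303) and loin against tenderloin (0.891-fold, adjusted p = 0.216) did not pass. These tests treated libraries as independent, although the same pigs gave all tissues. In exact sign-flip tests within pigs the same pairs passed, with an adjusted p of 0.0446 for backfat against lymph and 0.0130 for each of the others.

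The order depended on scaling and on the libraries left out. When libraries were put on a common scale with median-ratio size factors from 9884 transcripts (factors 0.654 to 1.91), the mean shares were 0.947 in brain, 0.809 in lymph, 0.736 in tenderloin, 0.607 in loin and 0.578 in backfat, in percent of 1000000 TPM after scaling. On that scale brain against lymph (0.25 log2, adjusted p = 0.112, exact permutation test) and lymph against tenderloin (0.13 log2, adjusted p = 0.428, exact permutation test) did not pass. Backfat moved below both muscles, by −0.10 log2 against loin and −0.36 log2 against tenderloin. With all 50 libraries, brain exceeded lymph by 0.40 log2 (adjusted p = 0.105, exact permutation test). The left-out brain libraries held 0.601% (S0235) and 0.859% (S0355), below every other brain library. The left-out loin library of S0355, with the adipocyte markers given above, held 1%, above every other loin library. The left-out lymph and backfat libraries held 1.30% and 0.498%, inside the ranges of the tissues they are labelled as. All 5 left-out libraries stood apart from those tissues by their markers.

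Other properties of the libraries moved with the share. Transcripts without any Swiss-Prot hit took a mean of 14.7% of TPM in brain, 12.8% in lymph, 11.3% in backfat, 7.51% in loin and 7.44% in tenderloin. The number of transcripts at 1 TPM or more averaged 42278 in brain, 36717 in lymph, 32662 in backfat, 28084 in tenderloin and 26579 in loin, and the 10 most abundant transcripts took 24.7% and 21.9% of TPM in the muscles against 12.4% in brain and 10.9% in lymph. Members made up 4.29% of the transcripts at 1 TPM or more in brain, 4.06% in lymph, 3.69% in tenderloin, 3.63% in loin and 3.41% in backfat. Matches to other repeat proteins followed another order, with 0.0990% of TPM in lymph, 0.0368% in backfat, 0.0303% in brain, 0.0128% in tenderloin and 0.0114% in loin. The part of these properties in the tissue order was not tested, and in bulk tissue fewer cells of a type and less RNA per cell cannot be told apart.

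Between types, the summed share did not pass adjustment over the 5 tissues. In tenderloin the ET libraries held 0.547%, 0.455%, 0.590%, 0.775% and 0.626% and the L libraries 0.466%, 0.486%, 0.332%, 0.444% and 0.496%. ET was 1.34-fold higher, and the groups overlapped through 1 ET library, that of S0242 (exact permutation p = 0.0317, adjusted p = 0.159). Without S0242 the difference was 0.51 log2 with an adjusted p of 0.0397 (exact permutation test). Leaving out the 1 library that overlapped makes the groups stand apart, so that p is no separate test of the type difference.

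In backfat the ET libraries lay close together, at 0.639%, 0.703%, 0.649%, 0.733% and 0.677%, whereas the L libraries spread over 0.711%, 0.261%, 0.484% and 0.618%. The ratio was 1.40-fold (exact permutation p = 0.0714, adjusted p = 0.179), and it shrank from 0.49 to 0.19 log2 without the lowest L library, that of S0377. That library also had the fewest transcripts at 1 TPM or more, 22878. With members limited to an E-value of at most 1e-50 (552 members), ET exceeded L in backfat by 0.79 log2 (adjusted p = 0.0397, exact permutation test). With members whose peptide matched LINE-1 (382), the difference was 0.65 log2 in backfat and 0.55 log2 in tenderloin (adjusted p = 0.0397 for both, exact permutation tests).

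The other tissues differed less between types. In brain the mean was 1.45% ± 0.156 in ET and 1.64% ± 0.205 in L (n = 4 each, −0.17 log2, exact permutation adjusted p = 0.286). In loin it was 0.446% ± 0.0674 (n = 5) and 0.470% ± 0.0377 (n = 4), a difference of −0.08 log2 (exact permutation adjusted p = 0.605). In lymph it was 0.953% ± 0.257 (n = 4) and 1.05% ± 0.352 (n = 5), a difference of −0.12 log2 (exact permutation adjusted p = 0.714). The signs in brain and loin turned under median-ratio scaling, to 0.0383 and 0.23 log2, and the sign in lymph turned without S0309 (0.0602) or without S0377 (0.0273). Over tissues, with 1 centred value per pig, ET exceeded L by 0.13 log2 (exact permutation p = 0.159, n = 5 pigs per type).

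Type differences between pairs of tissues, taken within pigs, were 0.57 log2 for backfat minus loin, −0.66 for brain minus tenderloin and −0.54 for loin minus tenderloin (adjusted p = 0.106 for each, exact permutation tests over 10 pairs). None of the 10 pairs passed. The smallest p an exact test could give was 0.0286 with 4 against 4 pigs and 0.00794 with 5 against 5. With 5 against 4 pigs it could be as low as 1 of 126 arrangements, because mirrored arrangements of unequal groups can differ in size.

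Among single members, the most abundant matched the longest stretch of ORF2. Backfat.L.NODE_19835, of 2635 bases, averaged 115.1 TPM over the 45 libraries and its match took up 82.8% of the transcript. Its level in brain was 166.4, 227.7, 223.8 and 209.5 TPM in ET and 188.6, 196.5, 272.1 and 266.4 TPM in L pigs. In backfat it was 73.4, 71.2, 68.6, 113.1 and 101.9 TPM in ET and 51.8, 12.7, 30.3 and 44.7 TPM in L pigs. Every brain library exceeded every backfat library, and every ET backfat library exceeded every L backfat library. Brain stood 1.42 log2 above the mean of the other tissues (SE 0.170, limma adjusted p = 1.210e-09). The type difference in backfat, 1.41 log2, was not called (limma adjusted p = 0.0808).

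Liver.ET.NODE_58825 was second, at a mean of 91.0 TPM, and was the most abundant ORF1 match. Brain libraries held 101.2 to 201.3 TPM and lymph 83.0 to 232.1 TPM, while loin held 25.3 to 67.5 TPM. In backfat 8 of the 9 libraries lay between 54.3 and 133.3 TPM, and L pig S0377 had 9.64 TPM. Its contrast of brain with the other tissues was 1.17 log2 (limma adjusted p = 6.409e-05). It shared its match with Tenderloin.L.NODE_28211, which averaged 33.3 TPM.

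Tenderloin.ET.NODE_63216 was highest in the muscles. It covers ORF1 residues 253 to 311. In tenderloin it reached 61.1, 84.7, 104.5, 122.8 and 274.3 TPM in ET and 273.1, 496.8, 108.0, 121.7 and 67.5 TPM in L pigs, so the types overlapped widely. In loin it stood at 63.7, 19.0, 24.1, 44.0 and 47.7 TPM in ET and 24.2, 16.1, 9.36 and 14.6 TPM in L pigs. It was listed at 0 in all 9 backfat libraries and did not exceed 0.386 TPM in brain or 0.241 TPM in lymph. Tenderloin exceeded the other tissues by 5.88 log2 (SE 0.197, limma adjusted p = 7.220e-26), the largest tissue difference of any member named here, and loin did so by 2.78 log2.

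Spleen.L.NODE_18080 was highest in backfat. The ORF2 match takes 4.45% of this transcript of 4515 bases, which also carries a CD99 peptide on the opposite strand. Backfat held 92.5, 105.8, 89.1, 96.0 and 51.2 TPM in ET and 87.8, 106.8, 173.8 and 131.4 TPM in L pigs, overlapping between types, and every other library held between 6.40 and 61.6 TPM. Backfat exceeded the other tissues by 2.54 log2 (limma adjusted p = 4.585e-16). Lung.ET.NODE_34297 had the same match, without a listed host peptide, and was 3.18 log2 higher in backfat (52.3 to 117.0 TPM).

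**Figure D3:**
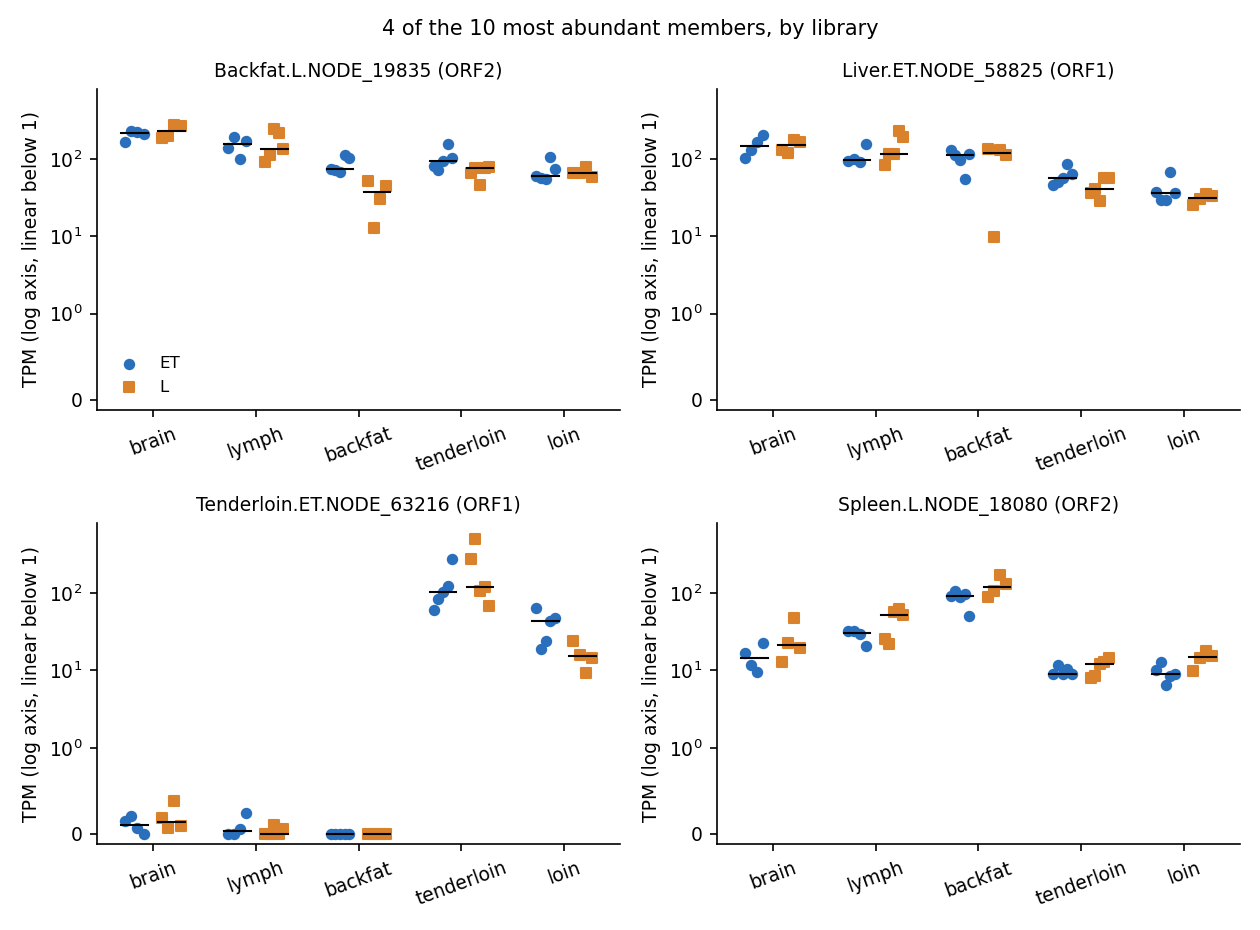
TPM of 4 of the 10 most abundant members by tissue and type in the 45 libraries (y axis logarithmic above 1 TPM and linear below). Points are libraries and black lines are group medians. Backfat.L.NODE_19835 and Liver.ET.NODE_58825 are present in every tissue, Tenderloin.ET.NODE_63216 is listed at 0 in backfat and exceeds 60 TPM in every tenderloin library, and Spleen.L.NODE_18080 exceeds 51 TPM in every backfat library.

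The other 6 of the 10 most abundant members all matched ORF2. Brain.ET.NODE_61798 (mean 53.7 TPM, 305 residues from residue 5) was 1.08 log2 higher in both brain and lymph than in the tissues set against each. Lung.ET.NODE_81393 (44.3 TPM, residues 91 to 450, 99.1% of the transcript), Lung.L.NODE_108861 (43.3 TPM, residues 132 to 271) and Kidney.L.NODE_104315 (38.5 TPM, residues 292 to 451) lie toward the amino end of the protein. They were 1.63, 1.43 and 1.497 log2 higher in brain. Liver.L.NODE_90796 (40.9 TPM, residues 1130 to 1253) and Liver.ET.NODE_67848 (36.0 TPM, residues 860 to 1053) were 1.48 and 1.42 log2 higher there. In backfat, L pig S0377 was lowest in each of these 6.

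Across tissues, the 1673 members with a mean of at least 1 TPM were compared in a limma model of log2(TPM + 1), each tissue against the mean of the other 4, with calls at an adjusted p under 0.05 and a difference of at least 1 log2 unit. In brain 987 members (59%) were higher, against 41.5% of all 43624 transcripts tested, and 22 (1.32%) were lower, against 5.04%. In lymph 267 (16%) were higher against 21.9%, and 52 (3.11%) were lower against 11.9%. In backfat 72 (4.3%) were higher against 11.8%, and 269 (16.1%) lower against 12.4%. The filter uses the mean over all 45 libraries, so a transcript could pass it through a high level in brain alone. Without the filter, 1093 of 2341 members and 20014 of 56909 transcripts were higher in brain, with median differences of 0.94 and 0.67 log2.

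The muscles had few members called higher. In loin 45 (2.69%) were higher against 6.4%, and 288 (17.2%) lower against 29%. In tenderloin 52 (3.11%) were higher against 6.27%, and 184 (11%) lower against 24.8%. The median difference of the members tested was 1.15 log2 in brain, against 0.82 for all transcripts tested, and −0.51 in backfat, against −0.19. It was 0.29 against 0.24 in lymph, −0.66 against −0.70 in loin and −0.57 against −0.65 in tenderloin.

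**Figure D4:**
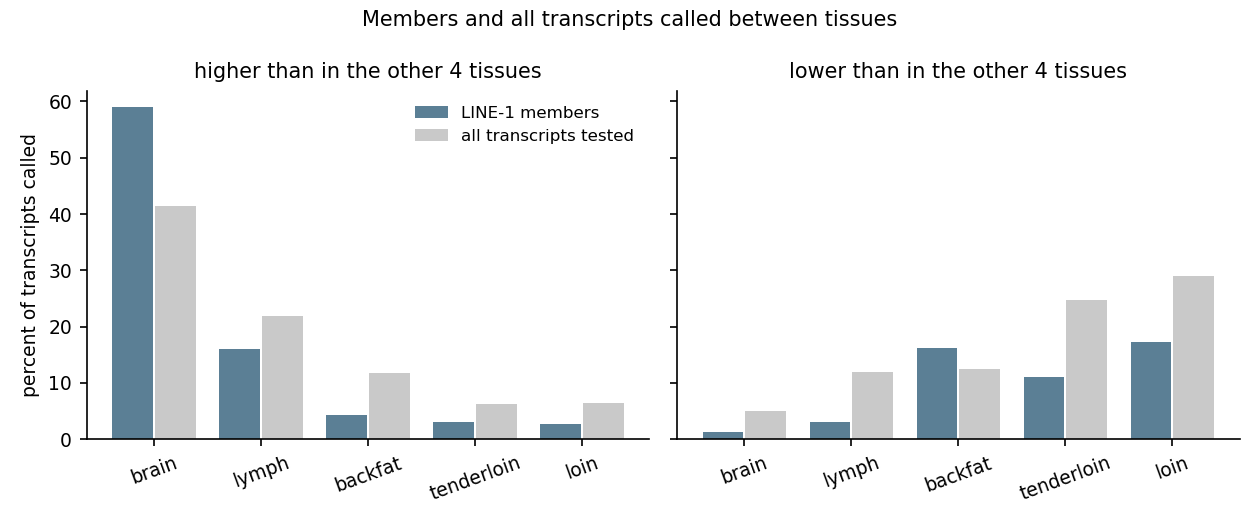
Percent of transcripts called higher or lower in each tissue than in the mean of the other 4 (y axis), for the 1673 members tested and for all 43624 transcripts tested. Members exceed all transcripts for higher calls in brain (59% against 41.5%) and for lower calls in backfat (16.1% against 12.4%), and lie below them in every other pair of bars.

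Brain was the tissue of the highest mean for 1157 of these members (69.2%), against 48.7% of all transcripts tested. Lymph was highest for 274 (16.4% against 24.0%), backfat for 122 (7.29% against 14.6%), tenderloin for 65 (3.89% against 5.72%) and loin for 55 (3.29% against 7.06%). Median-ratio scaling moved the centre of all transcripts in brain from 0.82 to 0.18 log2 and that of members from 1.15 to 0.53. On that scale 281 members were higher in brain and 50 lower, of 1582 tested. Of all 41905 transcripts tested, 7262 were higher and 4247 lower, so the members' share of higher calls was near that of all transcripts. The counts higher were 177 in lymph, 99 in tenderloin, 75 in backfat and 70 in loin, and those lower were 78, 31, 266 and 86. For all 41905 transcripts, in the same order of tissues, 6941, 4708, 5181 and 4305 were higher. Those lower were 6299, 4448, 5289 and 6817.

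The members with the largest tissue differences were long transcripts with short matches in several cases. In brain, Brain.ET.NODE_31482 was 4.70 log2 higher (28.7 to 51.5 TPM in brain and at most 5.53 TPM elsewhere); it also carries a protocadherin alpha peptide. Lung.ET.NODE_43563 was 4.25 log2 higher (21.9 to 39.1 TPM) and Lung.ET.NODE_8620, of 5501 bases, 4.18 log2 higher (12.0 to 31.4 TPM). For all 3, the lowest brain library lay above the highest library of any other tissue.

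In lymph, Lung.ET.NODE_46365 was 4.52 log2 higher (29.2 to 174.7 TPM), Lymph.L.NODE_2028, of 9876 bases, 4.39 log2 higher (11.7 to 39.1 TPM) and Lymph.ET.NODE_49863 4.06 log2 higher (18.3 to 63.5 TPM). Lymph.L.NODE_2028 stayed at or below 0.438 TPM outside lymph. In backfat, Lymph.L.NODE_46455 was 3.81 log2 higher, with 75.4 to 177.9 TPM against at most 20.3 TPM elsewhere. Backfat.L.NODE_5266, which carries an XG peptide, was 3.64 log2 higher and spread from 14.2 to 115.6 TPM, so that its lowest backfat library lay below its highest brain library (18.1 TPM).

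In the muscles, Loin.ET.NODE_2650, of 7771 bases with a myomegalin peptide, was 2.87 log2 higher in loin and 3.28 log2 higher in tenderloin. It held 9.76 to 25.98 TPM in loin and 14.7 to 31.1 TPM in tenderloin, and at most 0.776 TPM in the other tissues. Loin.ET.NODE_21858 was 3.21 log2 higher in loin (4.16 to 41.3 TPM) and Tenderloin.L.NODE_17053 3.11 log2 higher. Tenderloin.L.NODE_12567, with a peptide matching CP4F3, a fatty acid hydroxylase, was 2.93 log2 higher in tenderloin (11.4 to 43.6 TPM). Tenderloin.ET.NODE_34556, the second longest ORF2 match, was 2.22 log2 higher in tenderloin, with 7.77 to 35.5 TPM there. Each of the tissue differences given for named members had a limma adjusted p of at most 1.233e-04.

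In backfat, 16 of 1305 members tested were called higher in ET than in L pigs by limma (1.23%, against 2.19% of the 36794 transcripts tested). Lower calls numbered 2 (0.153% against 0.612%). All 18 matched ORF2. The higher calls ranged from 1.08 to 2.76 log2, with a median of 1.79. The median ET minus L difference of the members tested was 0.47 log2, against 0.27 for all transcripts tested. In 147 members (11.3%) every ET library exceeded every L library, against 8.07% of all transcripts tested.

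Backfat.ET.NODE_49415 rose most in ET backfat, by 2.76 log2 (SE 0.485, limma adjusted p = 0.0179). Its levels were 7.32, 11.06, 12.8, 26.4 and 6.95 TPM in ET and 2.25, 0, 0.362 and 1.60 TPM in L pigs, with no overlap. Outside backfat it stayed between 0.534 and 6.76 TPM. The match covers ORF2 residues 892 to 1051. Without L pig S0384 the adjusted p was 0.0702.

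Brain.L.NODE_43067, which matches ORF2 residues 1071 to 1189, rose by 2.21 log2 (SE 0.388, limma adjusted p = 0.0179). ET backfat held 5.53, 4.77, 3.90, 13.4 and 9.21 TPM and L backfat 1.01, 0.323, 0.590 and 0.819 TPM. ET backfat overlapped with brain, where both types held 7.54 to 14.0 TPM, and L backfat stayed in the range of the muscles and lymph. The adjusted p was 0.0518 without S0326, 0.0692 without S0384 and 0.0512 without S0385.

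Liver.ET.NODE_67848, a member among the 10 most abundant, rose by 1.41 log2 (SE 0.279, limma adjusted p = 0.0271). ET backfat held 20.2, 19.3, 24.0, 35.6 and 29.9 TPM and L backfat 8.33, 7.93, 9.15 and 9.99 TPM. The types did not overlap in backfat and overlapped in loin, at 16.3 to 38.0 TPM in ET and 21.9 to 31.9 TPM in L. It was outside the rule for naming called members and is described because its level is high.

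Others of the largest higher calls were Kidney.L.NODE_22582 (2.30 log2, ET 2.54 to 23.5 TPM, L 0.288 to 2.047 TPM, limma adjusted p = 0.0484) and Backfat.ET.NODE_37097 (2.11 log2, ET 1.67 to 7.72 TPM, L 0 to 0.793 TPM, limma adjusted p = 0.0214). Lung.ET.NODE_207258 was called higher with ET levels of 1.08, 9.44, 1.78, 3.57 and 4.50 TPM and was listed at 0 in all 4 L libraries (limma adjusted p = 0.0335). For none of the 3 did the groups overlap.

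The member that fell most in ET backfat, Liver.ET.NODE_35151, covers ORF2 residues 1173 to 1277. It held 0.982, 2.47, 3.43, 0.779 and 2.30 TPM in ET and 14.6, 17.7, 12.4 and 15.6 TPM in L pigs, a difference of −2.50 log2 (SE 0.357, limma adjusted p = 0.0109). Every other library of the 45 stood at 3.504 TPM or less, so the 4 L backfat libraries were alone above 12 TPM. The adjusted p was 0.219 with all 50 libraries. Lung.ET.NODE_121387 fell by 1.37 log2 (limma adjusted p = 0.0447), with 4.49 to 9.05 TPM in ET and 14.3 to 25.2 TPM in L backfat.

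The number of backfat calls depended on the libraries used. It was 1 without S0384, 3 without S0326, 6 without S0385, 10 without S0235 and 11 without S0242, and 20 without S0377. Leaving out a pig makes the groups smaller, and the matching counts over all transcripts are not given. These counts, and those below with 1 pig left out, therefore do not set the members apart. With all 50 libraries 9 members were called, of 1324 tested, where 631 of 37257 transcripts were called higher and 9 lower. Under median-ratio scaling, which brought the median of all transcripts from 0.27 to 0.11 log2, 8 members were higher and 4 lower, of 1268 tested. Of all 36123 transcripts tested, 1.54% were then called higher and 0.803% lower. Of the 16 higher calls 11 were ET-assembled (68.8%, against 62.7% of all transcripts called higher), and both lower calls were, against 34.2% of all transcripts called lower.

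Some marker sums differed between the backfat groups. The summed level of 6 adipocyte markers was 8457 to 19079 TPM in ET and 493.3 to 7509 TPM in L backfat. Red cell markers summed to 94.96 to 646.6 TPM in ET and 2.92 to 67.6 TPM in L, and macrophage markers to 321.0 to 775.7 TPM and 139.1 to 309.7 TPM. No marker in these 3 lists was at 0 in every backfat library. All other marker lists overlapped between types, such as endothelial markers at 440 to 759.3 TPM in ET and 28.8 to 1358 TPM in L backfat. The part of the marker sums in the backfat differences of members was not tested.

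In loin, limma called 10 of 1024 members tested higher in ET (0.977%, against 1.89% of the 28158 transcripts tested) and 19 lower (1.86% against 6.75%). The split depended on scaling: after median-ratio scaling 25 members were higher and 6 lower, of 1195 tested. Of all 31288 transcripts tested, 3.18% were then called higher and 2.04% lower. The median of the members moved from −0.04 to 0.19 log2 while that of all transcripts moved from −0.17 to 0.08. In 41 members (4%) every ET library lay below every L library, against 11.8% of all transcripts tested. The calls numbered 0 with all 50 libraries, where 5 of 31726 transcripts were called higher and 1 lower. They numbered 3 without S0377, 6 without S0385, 9 without S0326, 13 without S0309 and 15 without S0276, with no matching counts over all transcripts given. No member was called in both backfat and loin.

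Kidney.L.NODE_113093 was the ORF1 member that rose in ET loin, by 1.32 log2 (SE 0.245, limma adjusted p = 0.0172). It held 4.07, 4.62, 4.37, 6.75 and 5.56 TPM in ET and 2.23, 1.73, 0.537 and 1.44 TPM in L loin, with no overlap. In tenderloin the values were 7.46, 10.6, 7.02, 26.2 and 5.87 TPM in ET and 1.87, 2.44, 4.90, 7.49 and 1.79 TPM in L, overlapping and not called there. The adjusted p in loin was 0.0506 without S0377 and 0.147 with all 50 libraries.

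Brain.ET.NODE_61563 had the largest higher call, 2.02 log2 (limma adjusted p = 0.0422). ET loin held 3.03, 5.81, 5.22, 0 and 5.41 TPM, the 0 being pig S0309, and all 4 L loin libraries were listed at 0. ET pig S0309 was at 0 in all 5 tissues, and among the 22 L libraries the only value above 0 was 0.101 TPM in lymph. Leaving out any one of S0235, S0242, S0276, S0326, S0349, S0377, S0384 or S0385 brought the adjusted p to between 0.0690 and 0.0997.

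Further higher calls were Spleen.ET.NODE_52409 (ET 0 to 4.74 TPM, all L at 0, limma adjusted p = 0.0427), Brain.L.NODE_98423 (1.36 log2, ET 3.88 to 9.25 TPM, L 1.14 to 3.45 TPM, limma adjusted p = 0.0275) and Tenderloin.ET.NODE_114889 (1.24 log2, ET 3.48 to 10.1 TPM, L 1.73 to 3.23 TPM, limma adjusted p = 0.0318). Higher calls ranged from 0.80 to 2.02 log2, with 9 ORF2 and 1 ORF1 match, and 8 of the 10 were ET-assembled (80%, against 64.7% of all transcripts called higher).

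Brain.L.NODE_32812, an ORF1 match over residues 246 to 327, fell in ET loin by 1.49 log2 (SE 0.230, limma adjusted p = 0.0126). It held 0.668, 0.227, 0.417, 0.905 and 0.242 TPM in ET and 3.03, 1.91, 3.65 and 4.40 TPM in L loin. In tenderloin both types lay between 0.525 and 1.22 TPM, so the L loin libraries stood apart from the other muscle libraries. The adjusted p was 0.0758 with all 50 libraries.

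Tenderloin.L.NODE_17053 fell by 1.48 log2 (SE 0.366, limma adjusted p = 0.0379) and was the most abundant of the named loin calls. ET loin held 19.7, 29.8, 33.3, 10.35 and 29.6 TPM and L loin 44.3, 107.6, 54.7 and 69.7 TPM. In tenderloin the types overlapped, at 15.3 to 49.4 TPM in ET and 22.6 to 41.9 TPM in L. Its adjusted p rose above 0.05 without any one of 7 pigs (up to 0.102 without S0377), after median-ratio scaling (0.0913) and with all 50 libraries (0.801).

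**Figure D5:**
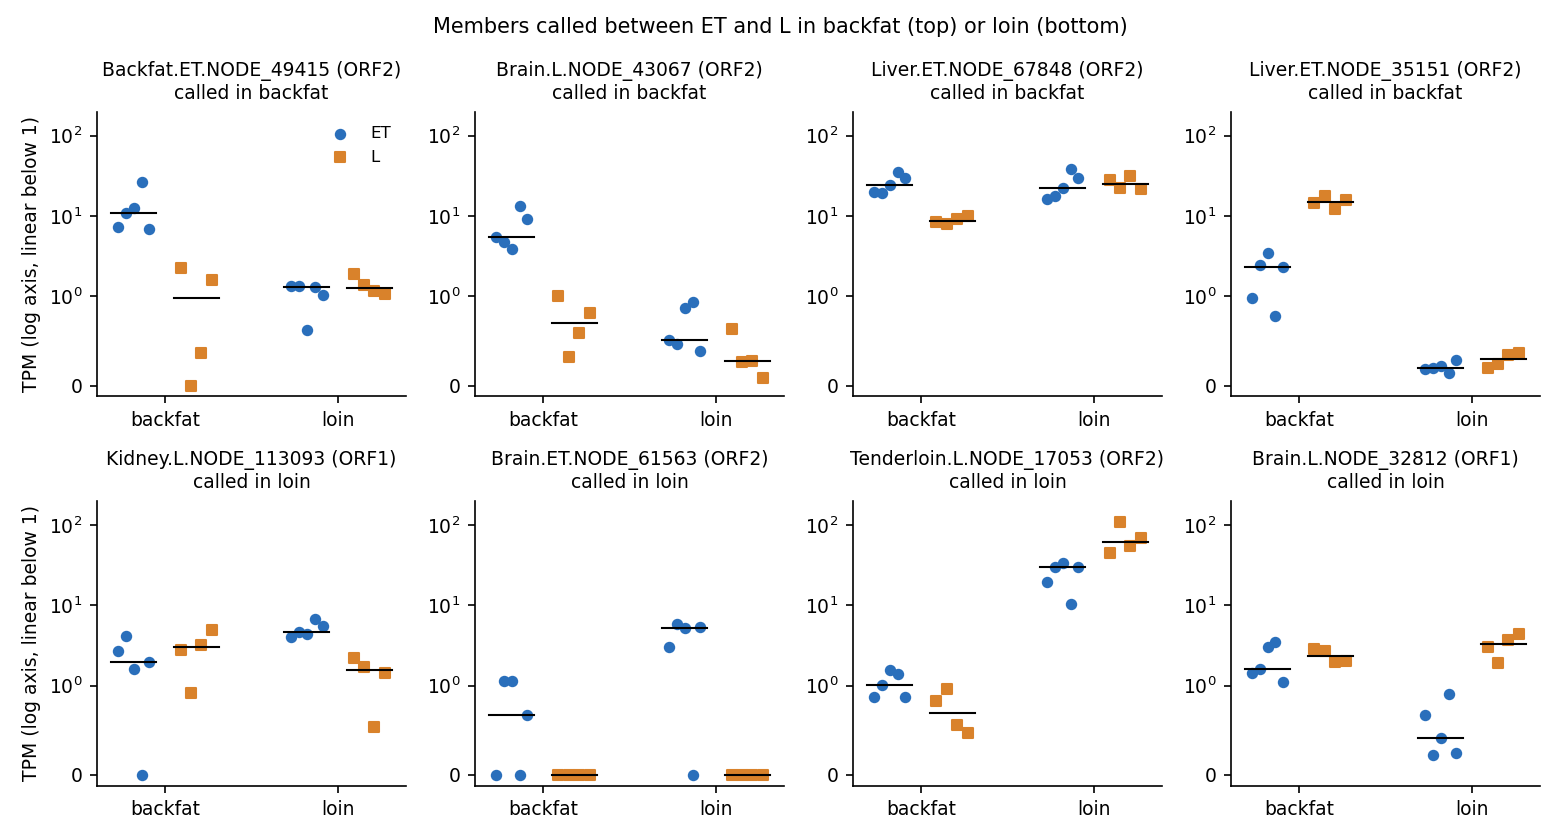
TPM in backfat and loin of 8 members called between ET and L (y axes logarithmic above 1 TPM and linear below), in backfat for the upper row and in loin for the lower row. Each point is a library and black lines are group medians. In the tissue of the call, the types do not overlap for Backfat.ET.NODE_49415, Brain.L.NODE_43067, Liver.ET.NODE_67848, Liver.ET.NODE_35151, Kidney.L.NODE_113093, Tenderloin.L.NODE_17053 and Brain.L.NODE_32812, and for Brain.ET.NODE_61563 1 ET library lies at 0 with the L libraries.

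The other lower calls in loin included Tenderloin.ET.NODE_12769 (−1.68 log2, ET 1.55 to 3.16 TPM, L 4.98 to 29.7 TPM, limma adjusted p = 0.0428), Lung.L.NODE_173705 (−1.55 log2, ET 0.758 to 5.83 TPM, L 6.57 to 13.0 TPM, limma adjusted p = 0.0464) and Lung.L.NODE_10713 (−1.28 log2, ET 0.521 to 1.52 TPM, L 2.09 to 4.14 TPM, limma adjusted p = 0.0159). The 19 lower calls ranged from −1.68 to −0.63 log2, with 18 ORF2 and 1 ORF1 match. One of the 18, Loin.ET.NODE_2650, is the transcript with a myomegalin peptide (−0.77 log2, ET 9.76 to 16.8 TPM, L 20.3 to 25.98 TPM). Of the lower calls 5 were ET-assembled (26.3%, against 44.0% of all transcripts called lower).

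Marker sums also differed between the loin groups. Red cell markers summed to 28.8 to 92.0 TPM in ET and 3.10 to 12.7 TPM in L loin, and macrophage markers to 21.8 to 51.6 TPM and 10.6 to 21.7 TPM, with no overlap in either list. The 3 matched pituitary hormones, of which 1 in each type was at 0 in every library, summed to 1.54 to 2.40 TPM in ET and 4.18 to 5.59 TPM in L. Skeletal muscle markers overlapped, with medians of 102684 TPM in ET and 72462 TPM in L, as did adipocyte markers, with medians of 42.9 and 70.5 TPM. Their part in the loin differences of members was not tested.

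Tenderloin had no member called by limma among 1105 tested, and of all 29859 transcripts 0.0134% were called higher and 0.00335% lower. At an unadjusted p under 0.05, 252 members (22.8%) were higher, against 10.9% of all transcripts, and 12 (1.09%) were lower, against 3.78%. The median difference of the members tested was 0.33 log2, against 0.10 for all transcripts tested, and was also 0.33 after median-ratio scaling. In 56 members (5.07%) every ET library exceeded every L library, against 2.55% of all transcripts tested. With S0242 or S0309 left out, 1 member was called.

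The smallest p in tenderloin belonged to Loin.L.NODE_53232, which matches ORF2 residues 10 to 157. ET libraries held 5.37, 6.62, 5.52, 10.6 and 4.10 TPM and L libraries 1.82, 1.14, 0.824, 2.68 and 1.32 TPM, a difference of 1.53 log2 (limma adjusted p = 0.0656). Lymph.ET.NODE_122738, matching residues 68 to 314 of the slow loris entry over 96.0% of its length, held 6.80 to 12.6 TPM in ET and 2.78 to 5.20 TPM in L (1.17 log2, limma adjusted p = 0.0888). Neither pair of groups overlapped.

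In brain no member was called by limma among 1878 tested, and 0.00898% of all transcripts were called in each direction. At an unadjusted p under 0.05, 7 members (0.373%) were higher, against 0.99% of all transcripts, and 83 (4.42%) were lower, against 7.9%. The smallest p there was that of Brain.L.NODE_9951, with 0.420, 0.491, 0.506 and 0.152 TPM in ET and 1.97, 1.81, 1.84 and 2.59 TPM in L (−1.13 log2, limma adjusted p = 0.556). Next was Tenderloin.L.NODE_56327, with 5.53 to 9.01 TPM in ET and 13.2 to 17.6 TPM in L (−0.88 log2, limma adjusted p = 0.557). Neither overlapped between types. In 63 members (3.35%) every ET library lay below every L library, against 5.57% of all transcripts tested. The members' median was −0.17 log2, against −0.22 for all, and moved to −0.00322 after median-ratio scaling, which moved that of all transcripts to −0.04.

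In lymph no member was called by limma among 1601 tested, against 0.00256% of all transcripts called higher and 0.0102% lower. At an unadjusted p under 0.05, 2 members (0.125%) were higher, against 0.92% of all transcripts, and 16 (0.999%) were lower, against 2.78%. Brain.L.NODE_85259 (−0.94 log2) and Liver.L.NODE_34361 (−1.74 log2) had the smallest p, each with a limma adjusted p of 0.983. Over tissues no member was called by limma among 1673 tested, against 0.00229% of transcripts called higher and 0% lower. At an unadjusted p under 0.05, 192 members (11.5%) were higher, against 7.38% of all transcripts, and 28 (1.67%) were lower, against 4.58%. Tenderloin.ET.NODE_19361 (0.81 log2) and Lymph.ET.NODE_122738 (0.69 log2) had the smallest p, with a limma adjusted p of 0.13 each. The members' median over tissues was 0.10 log2, against 0.01 for all transcripts tested. Leaving out S0309 gave 1 call over tissues.

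A type difference that depended on tissue was called in 209 members by limma's F test with the pig as a block (12.5%, against 16.6% of the 43624 transcripts tested). The named members with the smallest values were Liver.ET.NODE_35151 (adjusted p = 6.166e-08), Brain.L.NODE_43067 (adjusted p = 5.734e-05) and Backfat.ET.NODE_49415 (adjusted p = 9.609e-05), the 3 described above with differences in backfat. Of the 10 most abundant members 5 passed: Liver.ET.NODE_67848 (0.00124), Kidney.L.NODE_104315 (0.0184), Backfat.L.NODE_19835 (0.0212), Liver.L.NODE_90796 (0.0333) and Lung.ET.NODE_81393 (0.0483). Kidney.L.NODE_104315 held 32.3, 24.7, 16.8, 40.1 and 45 TPM in ET backfat against 10.95, 1.12, 10.1 and 13.7 TPM in L, and Lung.ET.NODE_81393 held 28.9, 20.4, 21.0, 51.1 and 26.7 TPM against 14.0, 4.09, 10.43 and 13.0 TPM. Both pairs stood apart in backfat and overlapped in brain and lymph. The count was 28 of 1688 with all 50 libraries, 131 of 1582 after median-ratio scaling and 132 of 1673 without the pig as a block. For all transcripts tested it fell as well, to 1543 of 44062, 5279 of 41905 and 3996 of 43624.

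The 5 L1TD1 matches were weakly represented and none was called between types. Liver.ET.NODE_85625 (residues 756 to 840 of the human protein, 47.1% identity) averaged 5.02 TPM and was 1.46 log2 higher in brain, at 8.004 to 16.4 TPM, than in the other tissues. Lung.L.NODE_50375 and Lymph.L.NODE_82883 shared the same match (residues 619 to 773 of the mouse protein, 28.9% identity) but not the same pattern. The first was 1.17 log2 higher in lymph (3.43 to 9.63 TPM). The second was 2.08 log2 higher in brain (2.33 to 19.1 TPM), was listed at 0 in all 4 L backfat libraries and depended on type and tissue together (limma adjusted p = 0.00541). Lung.L.NODE_139047 and Lung.L.NODE_51304 were 1.03 and 1.36 log2 higher in brain.

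Host genes known to restrain or assist LINE-1 were taken from a list of 71, of which 52 were matched to Swiss-Prot entries in the table, with transcripts summed per entry. In loin 1 of 43 tested rose in ET (2.33%, against 6.17% of all genes) and 11 fell (25.6%, against 25.2%) by limma, where 31.4% of all genes were called in either direction. The split depended on scaling: after median-ratio scaling 5 of the 43 were higher (11.6%, against 12.9% of all genes) and 3 lower (6.98%, against 9.48%), and the median of all genes moved from −0.22 to 0.06 log2. TYY1, the factor YY1 that positions LINE-1 transcription starts, fell by 0.74 log2 (adjusted p = 0.00438), with 20.1 to 25.8 TPM in ET and 31.9 to 43.4 TPM in L. SUV91 and EHMT1, histone H3 lysine methyltransferases, fell by 0.92 and 0.75 log2 (adjusted p = 0.00983 and 0.0145). RNH2A, the catalytic subunit of ribonuclease H2, rose by 0.77 log2 (adjusted p = 0.00540), with 10.35 to 14.3 TPM in ET and 5.81 to 7.19 TPM in L. These 4 kept their direction and their call after scaling. The list's median was −0.35 log2, against −0.22 for all genes, and −0.07 after scaling. With all 50 libraries 3 of these genes were called, where 61 of 11200 genes were called higher and 661 lower.

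In backfat 1 of 47 host genes was called, against 8.57% of all genes. PARP1, a DNA break sensor, rose by 1.07 log2 (SE 0.250, limma adjusted p = 0.0262), with 17.2 to 35.8 TPM in ET and 10.5 to 14.9 TPM in L. In tenderloin 1 of 43 was called, against 1.63%: CBX5, the heterochromatin protein HP1 alpha, fell by 0.75 log2 (limma adjusted p = 0.0320), with 5.42 to 8.92 TPM in ET and 11.2 to 12.7 TPM in L. In brain and lymph none of the 50 host genes tested was called by limma, against 0% of all genes in each. At an unadjusted p under 0.05 there were 8 in brain (16%, against 8.23% of all genes) and 2 in lymph (4%, against 4.38%).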

How the data were processed

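RNA was extracted with TRIzol and sequenced from TruSeq Stranded mRNA LT libraries, per the labels' protocols. The authors deposited 1 table of TPM for 57085 assembled transcripts in 50 libraries, and an annotation with Swiss-Prot BLASTX and BLASTP hits. Trimmomatic 0.36, Salmon 1.10.0 and a pig genome build are named in the submitters' processing notes, without their roles. The sources do not state how the assemblies were merged. TPM keeps no depth, so no count test was run.

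Here, matches were read from the annotation, and member TPM was summed per library. Summed shares were compared with two-sided exact permutation tests (own code, numpy 2.4.6) on log2 percent. Single transcripts were fitted over the whole table with limma 3.58.1 (R 4.3.3, trend) on log2(TPM + 1), with a mean of at least 1 TPM over the libraries of each fit and Benjamini-Hochberg adjustment over all transcripts tested. Calls needed an adjusted p under 0.05, and between tissues also 1 log2 unit. Fold changes on this scale understate changes of low transcripts. The limma fit was tested on simulated data. The permutation code was checked on small examples with known answers, 1 of them computed by scipy 1.17.1.

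Named members are the 10 most abundant, up to 5 calls per direction and comparison (or the 2 smallest p), the 3 largest tissue differences per tissue, all L1TD1 matches and the 3 longest ORF2 and ORF1 matches. The members, lists and left-out libraries were chosen with earlier results of these data known. The same pigs gave all tissues by the labels: deviations from group means correlated between tissues of 1 pig with a median r of 0.398 (84 of 84 pairs over 0.1) and between pigs of −0.121. Transcript sequences are not analysed here.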

Additional observations from a re-analysis of the deposited data

Results flagged for a closer look

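For the summed share and the 10 most abundant members, 108 groups of 4 or 5 libraries were examined for 1 library far from the rest, and 10 were found, all of single members. Chance flags about 1 in 20 groups. Liver.ET.NODE_58825 had 3 of them: L backfat pig S0377 at 9.636 TPM was far below its group, and ET loin pig S0309 at 67.53 TPM and ET lymph pig S0326 at 154.8 TPM were far above theirs. The highest ET library stood apart for Brain.ET.NODE_61798 in tenderloin (62.03 TPM), Lung.ET.NODE_81393 in backfat (51.08 TPM), Tenderloin.ET.NODE_63216 in tenderloin (274.3 TPM), and Lung.L.NODE_108861 in loin (48.43 TPM) and tenderloin (68.12 TPM). Of the 7 high libraries, 5 came from ET pig S0309 and the others, Liver.ET.NODE_58825 in lymph and Tenderloin.ET.NODE_63216 in tenderloin, from S0326. Liver.ET.NODE_67848 had a low ET brain library (55.82 TPM, S0242) and a low L tenderloin library (13.98 TPM, S0377).

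The difference between ET and L depended on the tissue in 5 of the 10 most abundant members, by limma's F test with the pig as a block. Of all members tested 12.5% passed, against 16.6% of all transcripts tested. The adjusted p was 0.00124 for Liver.ET.NODE_67848, 0.01839 for Kidney.L.NODE_104315, 0.02124 for Backfat.L.NODE_19835, 0.03328 for Liver.L.NODE_90796 and 0.04834 for Lung.ET.NODE_81393. Of the libraries left out of every comparison, the loin library of L pig S0355 held 1% of its TPM in members, above all 9 other loin libraries. That library held 21.75 TPM of skeletal muscle markers, against 54565 to 132946 TPM in those 9.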

How the results depend on the processing

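Depth is unknown, so counting error cannot be given. Over the alternatives run, 370 of 429 values of the summed shares and counts kept their direction and side of the threshold. Named calls kept their adjusted p under 0.05 in 127 of 238 alternatives and never changed sign. The causes of the changes below were not tested.

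The setting with all 50 libraries brings back the 5 whose markers stood apart from their labelled tissue. With all 50 libraries, brain minus lymph was 0.40 log2 and no longer passed, and the type differences between tissues turned to 0.0623 (brain minus loin), −0.22 (brain minus lymph) and −0.29 (loin minus lymph). Calls fell to 9 in backfat, 0 in loin, 28 for the type-by-tissue test and 3 host genes in loin. Type-by-tissue calls of all transcripts fell from 7260 of 43624 to 1543 of 44062. Percent without logs gave 0.152 for backfat minus loin, now passing, and type differences of −0.00247 (backfat minus tenderloin) and −0.0200 (brain minus lymph). Median-ratio scaling turned the type difference to 0.0383 in brain and 0.23 in loin, backfat minus loin to −0.10, backfat minus tenderloin to −0.36 and its type difference to −0.16; brain minus lymph (0.25) and lymph minus tenderloin (0.13) no longer passed. After scaling, 281 (brain), 177 (lymph), 99 (tenderloin) and 70 (loin) of 1582 members were higher than in the other tissues. Of all 41905 transcripts tested, 7262, 6941, 4708 and 4305 were. Type-by-tissue calls numbered 131 members and 5279 transcripts.

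Narrower member sets moved values. An E-value of at most 1e-50 gave 0.79 in backfat and 0.23 over tissues (exact permutation p = 0.0317), both passing, and −0.11 for backfat minus tenderloin. A LINE-1 peptide gave passing type differences of 0.65 in backfat, 0.55 in tenderloin, 0.71 for backfat minus loin and −0.61 for loin minus tenderloin. Matches along the deposited strand gave 0.47 for backfat minus loin and −0.27 for loin minus tenderloin, both passing, as did backfat minus loin without the most abundant member (0.37). ET-assembled members, a set added after seeing the data, gave 0.0109 in loin and 0.19 over tissues (exact permutation p = 0.0476).

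Leaving out 1 pig gave type differences of 0.32 to 0.51 in tenderloin and −0.278 to 0.0602 in lymph, and calls of 1 to 21 in backfat, 3 to 29 in loin, 0 to 1 in tenderloin and 0 to 1 over tissues. Counts over all transcripts with 1 pig left out are not given, so these calls do not set the members apart. A pseudocount of 0.1 gave 11 calls in backfat, where 549 of 36794 transcripts were called higher and 123 lower. It gave 126, 72, 475 and 83 of 1673 members higher in backfat, loin, lymph and tenderloin. Of all 43624 transcripts tested, 7157, 3660, 13754 and 3710 were higher there. Without the filter loin had 17 calls among 2310 members, where 245 of 54943 transcripts were called higher and 1037 lower. With the pig as a replicate block, brain minus loin was 1.72 log2 (adjusted p = 0.0130, exact sign-flip test within pigs) and the same 7 of the 10 tissue pairs passed for the summed share. Members called higher numbered 975 in brain and 278 in lymph, and those lower 322 in loin and 256 in backfat, of 1673 tested. For all 43624 transcripts tested these counts were 17896, 9826, 13140 and 5258. Without the block the type difference of brain minus lymph turned to −0.0560. The type-by-tissue test then passed 132 members, and 3996 of all 43624 transcripts tested.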
